A study of Mus musculus with 21 samples.

Results

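The comparison is of cells in which the kinase PERK had been switched on for 24 h with cells given the vehicle. It takes 4 of the 21 arrays of the series, chosen by their titles, and 2 arrays per group. The cells were MIN6m9, a subclone of a mouse insulinoma line that serves as a model of the insulin-secreting beta cell. All 4 arrays carry RNA of cells with the Fv2E-PERK transgene, a PERK kinase fused to a module that pairs up on addition of the small molecule AP20187. The AP 24 h cells received 1 nM AP20187 for 24 h, and the mock cells received ethanol. The sources used here do not give the harvest time of these mock cells, the promoter of the transgene or the number of clones. Wild-type MIN6m9 cells with AP20187 were not analysed here, so an effect of the compound itself and one of the kinase cannot be told apart. Neighbouring times of the same series, AP20187 for 6, 12 or 48 h with 2 arrays each, were used where they show how the 24 h values were reached. The 2 arrays of wild-type mock cells, on another slide, served in the choice of entries tested and in the estimate of the spread. They were not compared with the other groups. The labels do not say whether the 2 arrays of a group stand for independent cultures. The p-values therefore measure only the spread between arrays of the same group, which may be technical. That spread was estimated over all 12 arrays of the experiment, not only over the 4 compared.

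PERK is one of the kinases that phosphorylate the translation factor eIF2. When unfolded protein builds up in the endoplasmic reticulum (ER), PERK molecules pair, bulk protein synthesis slows, and a few messengers, that of the transcription factor ATF4 among them, are translated better. ATF4, with partners of the C/EBP family, then raises genes for amino acid uptake and synthesis, tRNA charging and feedback on eIF2, a programme called the integrated stress response. Beta cells make very large amounts of proinsulin and depend on PERK to match synthesis to folding. AP20187 switches on the fused kinase without an ER stressor. The other ER stress sensors, IRE1 and ATF6, are known for raising ER chaperones and folding enzymes.

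Levels are given as log2 of the processed spot signal relative to the 75th percentile of the same array, and changes as the AP 24 h mean minus the mock mean, with the standard error of the limma fit. Where both arrays of 1 group were not well above background, the change is given as "at least N-fold", the mean of the brighter group against the lowest signal well above background or the probe's own, whichever was higher. Of 23388 probe-level entries tested, 15759 (67.4%) had an adjusted p under 0.05 in limma's moderated test. Of all entries, 27% were higher and 40.4% were lower in AP 24 h cells, and the median change was -0.20. At an at least 2-fold change, 11.1% were higher and 13.5% lower. Calls are therefore frequent, and the counts of the gene groups below are read against these shares. The gene lists were chosen with earlier results of these data known. Their counts therefore describe the lists and are not independent support for a pathway. The direction of small changes depended on the scaling. The spike-in RNAs of known amount were dimmer in AP 24 h arrays by 0.67 in log2 signal, and the 75th percentile was brighter by 0.26. Scaling on the spike-ins therefore raised every change by 0.93, to a median of 0.73, and then 55.5% of entries were higher and 3.87% lower. Each of the 6314 higher calls kept its direction and call. Of the 9445 lower calls, 904 stayed lower, 737 (3.15% of entries) were called higher, and the others were not called. Genes near 0 and not called here were in part called higher with spike-in scaling. The spike-in scale rests on 7 probes, and their mean log2 signal could differ between arrays of a group, as at 48 h (12.94 and 12.37). Such differences enter the spread of that fit, so a change not called with spike-in scaling need not be absent. The scaling that holds for these cells was not tested, and changes are reported relative to the 75th percentile, with the spike-in count beside each group in which more genes fell than rose.

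The 4 arrays lay on 1 slide, with 75th percentile signals of 391 to 557, 46.8% to 52.7% of probes well above background and 0 saturated spots. Both mock arrays were in column 1 of that slide and both AP 24 h arrays in column 4, so treatment and column cannot be told apart. Mean spike-in signals (log2) were 12.34 and 12.40 in column 1, and 12.42 and 12.18 in column 2 (6 h). They were 12.11 and 11.82 in column 3 (12 h), and 11.65 and 11.76 in column 4. The part of column in the spike-in difference was not tested. The defining beta cell markers were abundant. Of 15 beta cell markers, 13 were well above background on every array, and the exceptions were the glucose transporter Slc2a2 and the peptide Ucn3. Their summed signal was 2095 and 2387 times the 75th percentile in AP 24 h cells, against 3630 and 3880 times in mock cells. Markers of exocrine and duct cells were mostly not well above background, and 6 of 8 were dim on all 4 arrays. Of 9 heart muscle markers 6 were dim on all 4 arrays, as were Col1a1, Col3a1, Cdh5, Ptprc and Adgre1 among the mesenchymal, endothelial and immune markers. The summed signal of the exocrine and duct markers was 34.4 and 34.4 times the 75th percentile in AP 24 h cells, against 23.7 and 19.0 times in mock cells. That of the heart muscle markers was 1.40 and 1.14 in AP 24 h cells, against 0.615 and 0.68 in mock cells, and that of the mesenchymal, endothelial and immune markers 1.74 and 1.46 in AP 24 h cells, against 0.735 and 0.725 in mock cells. Among the exocrine and duct markers, Spp1 alone was well above background on both mock arrays, and only Spp1 and Amy2a5 were on the AP 24 h arrays. Of the 2 mesenchymal, endothelial and immune markers tested, 1 rose, by 1.47, and the other was not called, at -0.10. Of 9 skeletal muscle markers 3 to 5 were well above background, with sums of 0.778 and 0.75 in AP 24 h cells, against 1.06 and 1.09 in mock cells. Of 7 markers of other islet endocrine cells 4 to 5 were, with sums of 37.6 and 34.6 in AP 24 h cells, against 66.5 and 65.0 in mock cells. The part of these markers in the results was not tested. In cultured cells, fewer cells expressing a gene and less RNA per cell cannot be told apart.

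The transcription factors of the integrated stress response were led by Atf3, a repressor and activator induced by many stresses. Of 14 tested, 10 rose and 2 fell, with a median change of 1.18 (1.55 without the gene dim in both groups) against -0.20 over all entries. With spike-in scaling 11 were higher and 0 lower. Atf3 stood at 4.97 and 4.96 in AP 24 h cells, against -1.18 and -1.30 in mock cells. Both AP 24 h arrays lay far above both mock arrays, and the change was 6.21 ± 0.08 (SE; 73.8-fold; adjusted p = 1.1e-08). With only the 4 arrays compared in the limma fit, the adjusted p of Atf3 was 0.0015. Atf4, the main effector downstream of phosphorylated eIF2, stood at 8.46 and 8.55 in AP 24 h cells, against 7.72 and 7.68 in mock cells. Its messenger rose by 0.80 ± 0.12 (adjusted p = 0.00038), and the arrays did not overlap. Ddit3, which encodes the pro-apoptotic factor CHOP, was at 4.57 and 4.66 in AP 24 h cells, against 3.06 and 3.07 in mock cells. The arrays of the groups did not overlap, as for 82.5% of all entries, and the change was 1.55 ± 0.08 (adjusted p = 2.2e-06). Jdp2, a relative of Atf3 that binds the same dimer partners, rose by 3.08 ± 0.12. Cebpb, the C/EBP family member that pairs with ATF4, rose by 2.62 ± 0.10, and the circadian repressor Nfil3 rose by 2.52 ± 0.09. Maff and Cebpg, a small Maf protein and a dimer partner of ATF4, rose by 1.82 ± 0.11 and 1.71 ± 0.10. Nfe2l2, which encodes the oxidative stress factor NRF2 and is itself a PERK substrate, was not called, at -0.03 ± 0.11 (adjusted p = 0.82).

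**Figure D1:**
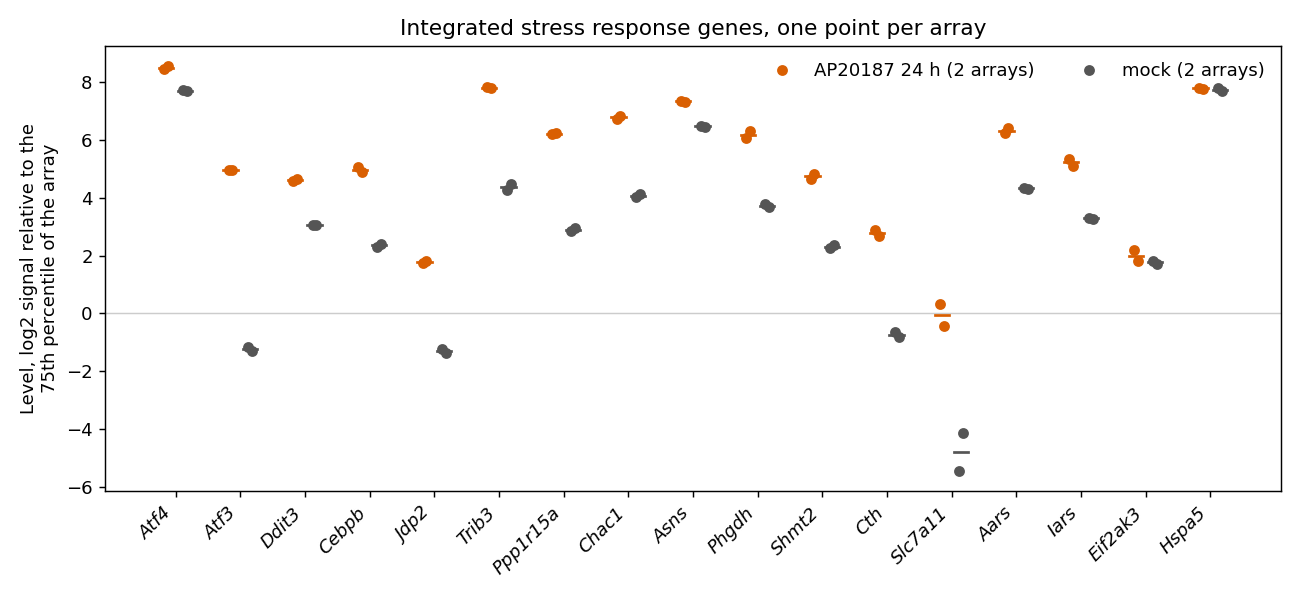
Levels of integrated stress response genes (log2 signal relative to the 75th percentile of the array) in AP 24 h cells (orange, left) and mock cells (grey, right). Points are arrays and bars are means of 2 arrays. Atf3 is near 5 in AP 24 h cells against about -1 in mock cells, whereas Eif2ak3 and Hspa5 lie close together.

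Feedback regulators and growth brakes were also higher. Of 14 tested, 8 rose and 3 fell, with a median change of 1.17 (1.78 without the gene dim in both groups). Ppp1r15a, which encodes the phosphatase subunit GADD34 that reverses eIF2 phosphorylation, stood at 6.20 and 6.24 in AP 24 h cells, against 2.85 and 2.95 in mock cells. Its change of 3.32 ± 0.08 is a 9.98-fold rise (adjusted p = 1.6e-07). The constitutive counterpart Ppp1r15b rose by 1.96 ± 0.10. Trib3, a pseudokinase that restrains ATF4 and AKT, was at 7.83 and 7.79 in AP 24 h cells, against 4.26 and 4.48 in mock cells, a change of 3.44 ± 0.12 (adjusted p = 4.1e-07). Chac1, which degrades glutathione, was at 6.74 and 6.84 in AP 24 h cells, against 4.03 and 4.12 in mock cells. That is a change of 2.71 ± 0.11 (adjusted p = 9.5e-07). The largest change of the list, 5.46 ± 0.15, was that of Soat2, a cholesterol-esterifying enzyme that the chosen list also holds. Soat2 was at 2.96 and 2.86 in AP 24 h cells, against -2.57 and -2.53 in mock cells. Eif4ebp1, a brake on cap-dependent translation, rose by 1.84 ± 0.10. With spike-in scaling 10 of the 14 were higher and 0 were lower, so the 3 that fell lost their direction or their call.

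The endogenous PERK gene, Eif2ak3, was at 2.20 and 1.81 in AP 24 h cells, against 1.81 and 1.73 in mock cells, and was not called (0.24 ± 0.15, adjusted p = 0.19). Whether its probe also detects the transgene was not tested. With spike-in scaling it was higher by 1.17 (adjusted p = 0.0011). Among 14 eIF2 kinases, eIF2 and eIF2B subunits and related factors, 8 rose and 0 fell. The eIF2 beta subunit Eif2s2 rose most, by 1.78 ± 0.13, followed by the eIF2B subunit Eif2b3 by 1.21 ± 0.08 and the eIF2 alpha subunit Eif2s1 by 0.81 ± 0.12.

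Secreted products of stressed cells moved both ways. Of 10 tested, 5 rose and 2 fell. Fgf21, a fasting hormone and ATF4 target in liver, was not well above background in mock cells and was at least 3.73-fold higher in AP 24 h cells (adjusted p = 2.5e-05). Adm2, a peptide of the calcitonin family, was at 3.17 and 3.52 in AP 24 h cells, against 1.01 and 1.09 in mock cells, and rose by 2.30 ± 0.13. Its paralogue Adm, adrenomedullin, went the other way. Adm was at -2.09 and -2.07 in AP 24 h cells, against 1.31 and 1.40 in mock cells, and fell by 3.43 on the log2 scale (SE 0.10; adjusted p = 2.5e-07). Adm stayed lower with spike-in scaling, at -2.50. Gdf15, a stress cytokine with brain-stem receptors, was not called (0.49 ± 0.24, adjusted p = 0.10), and was not well above background in mock cells.

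Enzymes that supply serine, glycine and one-carbon units rose together: 11 of 17 rose and 1 fell, with a median change of 0.65 (1.03 with dim genes at their bound or left out). Phgdh, the first enzyme of serine synthesis, was at 6.06 and 6.31 in AP 24 h cells, against 3.79 and 3.68 in mock cells (2.45 ± 0.15, adjusted p = 4.4e-06). Shmt2, the mitochondrial enzyme that turns serine into glycine, was at 4.66 and 4.83 in AP 24 h cells, against 2.25 and 2.35 in mock cells (2.45 ± 0.12, adjusted p = 1.6e-06). The folate enzymes Shmt1 and Mthfd2 rose by 1.61 ± 0.12 and 1.61 ± 0.12. Gldc, of the glycine cleavage system, was not called at -0.16 ± 0.13 (adjusted p = 0.32).

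Of 15 genes of cysteine supply and glutathione, 8 rose and 4 fell, and with spike-in scaling 11 were higher and 0 lower. Slc7a11, the cystine transporter, was not well above background in mock cells and was at least 16.2-fold higher in AP 24 h cells (adjusted p = 9.6e-05). Its heavy chain Slc3a2 rose by 2.35 ± 0.10. Cth, the last enzyme of cysteine synthesis, was at 2.90 and 2.69 in AP 24 h cells, against -0.64 and -0.82 in mock cells, a rise of 3.52 ± 0.14 (11.5-fold). Gsr and Gclm, which recycle and make glutathione, fell by 0.83 and 0.82, and with spike-in scaling their changes were 0.10 and 0.11, neither of them called.

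Of 18 amino acid transporters of the plasma membrane, 9 rose and 6 fell. The cationic transporters Slc7a3 and Slc7a1 rose by 2.38 ± 0.21 and 1.58 ± 0.12, the glycine transporter Slc6a9 by 2.23 ± 0.14, the neutral transporter Slc1a5 by 1.64 ± 0.13, and the leucine carrier Slc7a5 by 1.63 ± 0.13. With spike-in scaling, 12 of the 18 were higher and 0 lower. Among 17 enzymes of asparagine, alanine, proline and glutamate metabolism, 10 rose and 4 fell. Asns, asparagine synthetase and a classical ATF4 target, was at 7.34 and 7.33 in AP 24 h cells, against 6.49 and 6.46 in mock cells, a rise of 0.86 ± 0.12 (adjusted p = 0.00034). Aldh18a1, of proline synthesis, rose by 2.39 ± 0.12, and the mitochondrial alanine aminotransferase Gpt2 rose by 2.14 ± 0.13. Glul, glutamine synthetase, ran against them. It was at 1.05 and 1.05 in AP 24 h cells, against 3.43 and 3.42 in mock cells, and remained lower with spike-in scaling, at -1.44.

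The cytosolic aminoacyl-tRNA synthetases, which charge tRNAs with their amino acids, had the highest share of rises among these groups. Of 20 tested, 17 rose and 1 fell, with a median change of 1.37. Aars was at 6.25 and 6.40 in AP 24 h cells, against 4.35 and 4.31 in mock cells (a 3.99-fold rise, SE 0.09 in log2, adjusted p = 1.3e-06). Iars was at 5.35 and 5.11 in AP 24 h cells, against 3.30 and 3.27 in mock cells (1.94 ± 0.11, adjusted p = 3.8e-06). Nars, Tars and Yars rose by 1.93 ± 0.15, 1.84 ± 0.11 and 1.83 ± 0.27. Wars and Kars were not called, at 0.05 ± 0.08 and -0.10 ± 0.07. Of 16 mitochondrial synthetases, 9 rose and 4 fell with a median of 0.28, led by Ears2 at 1.98 ± 0.08.

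ATF4 and C/EBP partners bind a composite element with the core TGATGNAA, and promoter sequences are shown because many genes of these groups rose together. In the RefSeq promoter table of GRCm38.p6, which holds 250 bases before and 50 bases after each start, that core was searched on both strands (its other strand reads TTNCATCA). It was present in 3.97% of 32851 promoter windows and for 4.51% of 27025 genes. It was present for 5 of the 13 cytosolic synthetase genes with a window, 4 of 10 feedback genes, 4 of 14 genes of the asparagine and proline group, and 2 of 13 stress response transcription factors. It was present for 2 of 16 amino acid transporters and 1 of 11 genes of cysteine supply and glutathione, and for 0 of 14 serine, glycine and one-carbon enzymes and 0 of 14 mitochondrial synthetases. Other lists held it as well, 2 of 16 Bcl2 family genes, 2 of 17 lipid droplet genes, 2 of 18 lysosomal genes and 2 of 18 beta cell transcription factors. Further lists held none, such as 0 of 19 autophagy genes and 0 of 23 cytosolic ribosomal protein genes. A match is a description of these letters and not of binding. The windows below lie upstream of the start, read 5′ to 3′ on the strand of the gene, and carry each match in capitals. They cover chr1:191183396-191183483 (minus strand) for Atf3, chr2:119351009-119351096 (plus strand) for Chac1, chr6:7693210-7693272 (minus strand) for Asns, chr3:50443614-50443700 (minus strand) for Slc7a11 and chr8:111033690-111033777 (plus strand) for Aars.
Atf3: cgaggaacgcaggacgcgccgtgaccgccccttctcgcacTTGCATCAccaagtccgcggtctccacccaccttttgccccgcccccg
Chac1: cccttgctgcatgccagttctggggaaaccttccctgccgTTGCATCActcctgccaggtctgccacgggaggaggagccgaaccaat
Asns: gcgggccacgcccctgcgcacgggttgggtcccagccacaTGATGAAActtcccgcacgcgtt
Slc7a11: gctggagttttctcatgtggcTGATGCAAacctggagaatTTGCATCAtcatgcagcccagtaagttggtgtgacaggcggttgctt
Aars: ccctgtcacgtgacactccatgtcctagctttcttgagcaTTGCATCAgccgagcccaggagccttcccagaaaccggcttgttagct
The first base of the match lay 110 bases before the start in Atf3, 193 in Chac1, 23 in Asns and 112 in Aars. In Asns it was on the strand of the gene, and in Atf3, Chac1 and Aars on the opposite strand. The Slc7a11 window held 2 matches, with their first bases 66 bases (gene strand) and 47 bases (opposite strand) before the start.

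Genes of protein folding in the ER are known mainly as targets of the IRE1 and ATF6 sensors. Hspa5, which encodes the chaperone BiP and is the standard readout of IRE1 and ATF6 signalling, was at 7.79 and 7.78 in AP 24 h cells, against 7.78 and 7.70 in mock cells, and was not called (0.04 ± 0.10, adjusted p = 0.72). With spike-in scaling and with quantile normalization it was called higher, by 0.97 and 0.49. Of 20 ER chaperones, 3 rose and 12 fell, with a median of -0.49, but with spike-in scaling 8 were higher and 0 lower. The co-chaperone Dnajc3 and the prolyl isomerase Fkbp2 fell by 0.94 and 1.21, and with spike-in scaling neither change was called. Hsp90b1, the ER form of HSP90, was not called at -0.16 ± 0.11 (adjusted p = 0.25). Of 18 disulfide isomerases and oxidases, 0 rose and 15 fell, with a median of -0.80, and with spike-in scaling 4 were higher and 0 lower. P4hb, protein disulfide isomerase, was at 4.73 and 4.75 in AP 24 h cells, against 5.78 and 5.67 in mock cells (-0.99 ± 0.08, adjusted p = 2e-05), and at -0.06 with spike-in scaling. Of 22 genes of ER-associated degradation, 3 rose and 8 fell with a median of -0.05, a share of falls near that of all entries (40.4%), and with spike-in scaling 14 were higher and 0 lower. Herpud1, which recruits substrates to the retrotranslocation complex, rose by 0.84 ± 0.13.

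The promoter of Hspa5 is shown as a counterpart. The ER stress element searched was CCAAT, 9 further bases and CCACG, on both strands. It was present in 0.119% of all windows and for 0.137% of 27025 genes. Of 16 ER chaperone genes with a window, 6 held it (Calr, Canx, Creld2, Dnajc3, Hsp90b1 and Hspa5). It was also present for 2 of 15 disulfide isomerases and oxidases (Ero1b and Pdia6) and 2 of 19 genes of ER-associated degradation (Derl3 and Syvn1). The feedback list held it for 1 of 10 genes (Dnajc3) and the fatty acid synthesis list for 1 of 15 (Acacb). The window is chr2:34771985-34772083 (plus strand), with the match from 65 to 47 bases before the start in capitals.
Hspa5: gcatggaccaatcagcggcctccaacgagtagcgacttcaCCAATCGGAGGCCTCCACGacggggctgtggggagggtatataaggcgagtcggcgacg
The composite core TGATGNAA was found for 1 of the 16 ER chaperone genes, Cdnf, a neurotrophic factor resident in the ER. Cdnf was dim in mock cells and at least 1.67-fold higher in AP 24 h cells.

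Genes of hormone production were lower almost without exception. Of 17 insulin and prohormone processing genes, 16 fell and 1 rose, with a median of -0.99. With spike-in scaling that group did not keep its direction, with 1 lower, 1 higher and a median of -0.06. Ins1 was at 9.36 and 9.55 in AP 24 h cells, against 9.87 and 10.06 in mock cells (-0.51 ± 0.11, adjusted p = 0.0041). Ins2 was at 8.67 and 8.90 in AP 24 h cells, against 9.12 and 9.28 in mock cells (-0.41 ± 0.13, adjusted p = 0.019). With spike-in scaling the changes turned to 0.42 and 0.52, neither of them called. Ins1 was at 0 and Ins2 at 0.14 with quantile normalization, neither called, and Ins2 missed the threshold without AP 24 h replicate 1 (-0.30) and without mock replicate 2 (-0.33). Slc30a8, the zinc transporter of the insulin granule, was at 4.06 and 4.16 in AP 24 h cells, against 5.99 and 5.88 in mock cells (-1.82 ± 0.10, adjusted p = 2.4e-06), and it was the 1 member that stayed lower with spike-in scaling, at -0.89. The chaperone Scg5 and the convertase Pcsk2 fell by 1.45 and 1.11, and with spike-in scaling neither change was called. The summed beta cell marker signal, given above, was lower in the same arrays, and its part in these changes was not tested.

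Of 22 beta cell transcription factors tested, 10 fell and 4 rose, a share of falls near that of all entries (40.4%), with a median of -0.55 (-0.33 with dim genes at their bound or left out). With spike-in scaling 3 were lower and 10 higher. Pdx1, the master regulator of the pancreas, was at 2.13 and 2.20 in AP 24 h cells, against 3.35 and 3.34 in mock cells (-1.18 ± 0.08, adjusted p = 5.9e-06). With spike-in scaling it was at -0.25 and not called. Mafa, an activator of the insulin gene, was at 2.61 and 2.77 in AP 24 h cells, against 3.40 and 3.52 in mock cells (-0.76 ± 0.09), and turned to 0.17 with spike-in scaling. Isl1 and Nkx2-2, which maintain beta cell identity, fell by 1.97 and 1.75 and stayed lower with spike-in scaling, at -1.04 and -0.82. Neurod1 was not called at -0.17 ± 0.09 (adjusted p = 0.12).

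Genes for sensing glucose, lipids and incretins fell in 12 of 20 cases and rose in 1, with a median of -0.89. With spike-in scaling 6 were lower and 5 higher. Ffar1, the fatty acid receptor of beta cells, was at -4.57 and -5.14 in AP 24 h cells, against -1.77 and -1.61 in mock cells (-3.17 ± 0.20, adjusted p = 5.8e-06), with 1 AP 24 h array not well above background. G6pc2, the glucose-6-phosphatase of islets, was at 4.71 and 4.53 in AP 24 h cells, against 6.91 and 6.75 in mock cells (-2.21 ± 0.11). The incretin receptors Glp1r and Gipr fell by 1.88 and 1.70, and both stayed lower with spike-in scaling, at -0.95 and -0.77. Of the 20 genes, 4 were not well above background in either group, and 2 of the 12 falls, Slc2a2 and Ucn3, are among them, so their sizes are not measured.

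The lowest medians belonged to glycolysis and to targets of the hypoxia-inducible factors, transcription factors that raise glycolysis when oxygen is short. Of 17 glycolytic genes, 0 rose and 15 fell, with a median of -1.70. With spike-in scaling 10 were still lower and 2 higher. Aldoc was at 2.70 and 2.58 in AP 24 h cells, against 5.83 and 5.82 in mock cells (-3.18 ± 0.07, adjusted p = 1.6e-07). Gpi1, the second enzyme of the pathway, was at 5.86 and 5.87 in AP 24 h cells, against 8.27 and 8.33 in mock cells (-2.43 ± 0.07). Pgam1, the glucose transporter Slc2a1, the regulatory enzyme Pfkfb3 and Aldoa fell by 2.41, 2.19, 2.11 and 1.78. The lactate enzyme Ldha and the lactate exporter Slc16a3, both normally kept low in beta cells, fell by 2.85 and 4.20. Of 12 genes of the list normally kept low in beta cells, 5 rose and 6 fell, and with spike-in scaling 6 were higher and 2, Slc16a3 and Ldha, were lower. Slc16a3 was at 1.23 and 1.51 in AP 24 h cells, against 5.55 and 5.58 in mock cells, an 18.4-fold difference. Eno2 and Pfkfb2 were not called, at 0.20 ± 0.09 and -0.04 ± 0.13.

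Of 14 hypoxia-inducible factor targets and regulators, 9 fell and 2 rose, with a median of -1.22, and with spike-in scaling 7 were lower and 5 higher. Bnip3, a mitophagy receptor, was at 4.72 and 4.69 in AP 24 h cells, against 8.19 and 8.27 in mock cells. Its change of -3.53 ± 0.07 is an 11.5-fold fall (adjusted p = 1.1e-07), and it was -2.59 with spike-in scaling. Ankrd37 was at 0.48 and 0.53 in AP 24 h cells, against 3.88 and 3.83 in mock cells (-3.35 ± 0.11). Pdk1, which shuts pyruvate out of the mitochondrial cycle, and the collagen prolyl hydroxylase P4ha1 fell by 3.09 and 2.99. The oxygen-sensing hydroxylases Egln3 and Egln1 fell by 2.34 and 2.19. Vegfa, the angiogenic factor, which is both a hypoxia and an ATF4 target in other cells, was at 4.69 and 4.45 in AP 24 h cells, against 4.53 and 4.68 in mock cells, and was not called (-0.03 ± 0.12, adjusted p = 0.86). The genes Hif1a and Ndrg1 were those that rose. They lie outside the fixed naming rule and were named after their values were seen, at 0.54 and 0.57.

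**Figure D2:**
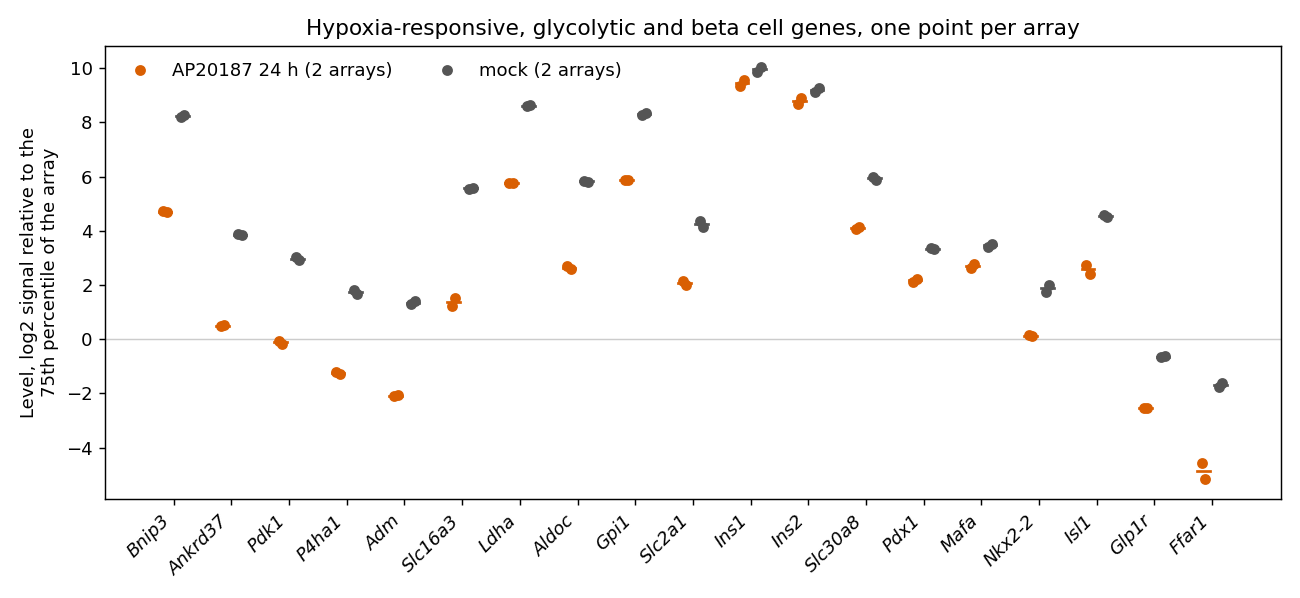
Levels of hypoxia-responsive, glycolytic and beta cell genes (log2 signal relative to the 75th percentile of the array) in AP 24 h cells (orange, left) and mock cells (grey, right). Points are arrays and bars are means of 2 arrays. Bnip3 and Slc16a3 are lower by 3.53 and 4.20 in AP 24 h cells, while Ins1 and Ins2 differ by about 0.5 and 0.4.

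The core of the hypoxia response element, ACGTG on either strand, is short and was present in 19.6% of all windows and for 21.8% of all genes. It was present for 10 of 13 hypoxia-inducible factor genes and 10 of 17 glycolytic genes with a window. Other lists held it as well, 10 of 15 disulfide isomerases and oxidases, 11 of 18 lysosomal genes, 10 of 19 genes of ER-associated degradation and 6 of 13 cytosolic synthetases, a list that mostly rose. The hypoxia-inducible factor and glycolytic groups held 0 matches of TGATGNAA. Bnip3, Ankrd37 and Slc2a1 are shown as examples of these groups, with the core in capitals on either strand. Some genes that fell more than Slc2a1, such as Aldoc and P4ha1, held the core as well. The windows are chr7:138909569-138909653 (minus strand), chr8:45999851-45999896 (minus strand) and chr4:119108669-119108744 (plus strand).
Bnip3: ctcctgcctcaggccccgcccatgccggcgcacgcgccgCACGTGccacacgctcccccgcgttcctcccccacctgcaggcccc
Ankrd37: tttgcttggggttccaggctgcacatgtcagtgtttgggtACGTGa
Slc2a1: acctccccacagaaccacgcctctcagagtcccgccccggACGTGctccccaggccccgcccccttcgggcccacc
The last base of the core on the strand of the gene lay 103 bases before the start in Bnip3, 2 in Ankrd37 and 32 in Slc2a1. In Bnip3 a match on the opposite strand, from 108 bases before the start, overlapped it. No value bears on binding of a factor to these windows.

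Immediate early genes, which respond within minutes to growth and stress signals, had the highest median of all groups, 2.37 (2.06 with dim genes at their bound or left out). Of 18 tested, 17 rose and 0 fell. Egr2 was at 1.93 and 1.66 in AP 24 h cells, against -3.11 and -3.35 in mock cells (5.02 ± 0.22, adjusted p = 1.1e-06). Ier2 was at 1.90 and 2.0 in AP 24 h cells, against -2.20 and -1.95 in mock cells (4.03 ± 0.11). Egr4 rose by 4.37 ± 0.12 and Myc, a driver of growth, by 3.45 ± 0.13. Fosl2 was not called (-0.02 ± 0.16). The dual-specificity phosphatases and Sprouty family members, brakes on MAP kinase signalling, rose in 8 of 14 cases and fell in 2. Dusp16 rose by 3.28 ± 0.09, and Dusp2 was dim in mock cells and at least 11-fold higher. Dusp1 was not called (-0.18 ± 0.16).

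NF-kB subunits and chemokines rose in 13 of 18 cases and fell in 2, with a median of 1.38, or 0.79 with dim genes at their bound or left out. Relb, a subunit of the non-canonical pathway, was at 4.90 and 4.96 in AP 24 h cells, against 0.64 and 0.61 in mock cells (4.30 ± 0.07, adjusted p = 7.3e-08). Its partner Nfkb2 rose by 3.19 ± 0.13. The chemokine Cxcl10 was not well above background in mock cells and was at least 22.7-fold higher in AP 24 h cells. Interferon-stimulated genes, of which Cxcl10 is also one in other settings, rose in 1 of 15 cases and fell in 3, and with spike-in scaling 11 were higher and 0 lower. With the 75th percentile, Irf1, Oasl1 and Oas1a were not called.

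Cell death regulators were called in both directions. Of 17 genes of the Bcl2 family and caspases, 8 rose and 2 fell. The BH3-only gene Hrk was at 1.21 and 1.32 in AP 24 h cells and was not well above background in mock cells, a rise of at least 40.5-fold. Casp4, an inflammatory caspase, was at 1.77 and 2.0 in AP 24 h cells, against -3.40 and -4.31 in mock cells, with 1 mock array not well above background (5.73 ± 0.27). Bbc3, which encodes PUMA, rose by 2.10 ± 0.08, Bid by 2.05 ± 0.10 and Bcl2l11, which encodes BIM, by 1.72 ± 0.13. Bik, another BH3-only gene, fell by 1.93 and stayed lower with spike-in scaling (adjusted p = 0.0015). Bcl2 and Bcl2l1, the protective members, were not called (0.00 ± 0.13 and -0.16 ± 0.07). Among 19 targets of p53, 12 rose and 5 fell, led by Plk2 (3.12 ± 0.26), Trp53 itself (2.29 ± 0.19) and Bbc3.

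Genes of DNA replication rose in 22 of 30 cases and fell in 3, with a median of 0.86. The origin factor Mcm10 was at 4.54 and 4.62 in AP 24 h cells, against 2.24 and 2.24 in mock cells (2.34 ± 0.07), and the helicase subunit Mcm5 rose by 1.77 ± 0.08. Of 30 mitotic genes, 10 were higher and 10 lower, near the shares of all entries (27% higher and 40.4% lower). With spike-in scaling 23 of them were higher and 1 lower. Aurkb fell by 1.97 and Kif23 rose by 1.43 ± 0.09. Whether replication and mitosis lists differ was not tested.

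Transcripts that nonsense-mediated decay removes, such as the spliced host transcripts of small nucleolar RNAs, and factors of that decay rose in 9 of 12 cases and fell in 1 (median 1.21). Snhg1 was at 4.66 and 4.77 in AP 24 h cells, against 1.94 and 2.03 in mock cells (2.73 ± 0.12). Snhg12 rose by 2.63 ± 0.06 and the decay factor Upf2 by 1.75 ± 0.11. Cytosolic ribosomal protein genes fell in 21 of 30 cases by small amounts (median -0.39), but with spike-in scaling 14 were higher and 0 lower, and with quantile normalization 10 were higher and 1 lower, so their direction is not settled.

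Lysosomal genes fell in 18 of 25 cases and rose in 6 (median -0.82), with 3 lower and 8 higher under spike-in scaling. Ctsh, a cathepsin, and Npc2, a cholesterol carrier, fell by 2.09 and 1.76 and stayed lower, at -1.16 and -0.83. Gpnmb, a glycoprotein of lysosomes and melanosomes, was among those that rose, by 5.22 ± 0.23, with 1 mock array not well above background. Autophagy genes rose in 13 of 24 cases and fell in 6, among them the cargo receptor Sqstm1 (1.47 ± 0.09). Oxidative phosphorylation genes fell in 19 of 25 cases and rose in 2 (median -0.60), with 1 lower and 6 higher under spike-in scaling.

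Of 18 genes of fatty acid synthesis, 11 fell and 3 rose, and under spike-in scaling 3 were lower and 7 higher. The desaturases Scd2 and Scd1 fell by 2.09 and 1.60 and stayed lower with spike-in scaling. Acacb, which makes the malonyl-CoA that blocks fatty acid entry into mitochondria, rose by 2.60 ± 0.09. Of 18 lipid droplet genes, 5 rose and 7 fell, close to the shares of all entries, and with spike-in scaling 11 were higher and 1 lower. Cidea rose by 2.54 ± 0.11 and the droplet coat gene Plin2 by 1.52 ± 0.08. Txnip, a glucose-responsive arrestin, rose by 2.41 ± 0.14, whereas Mlxipl, which encodes ChREBP, fell by 1.54 and stayed lower with spike-in scaling at -0.61.

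**Figure D3:**
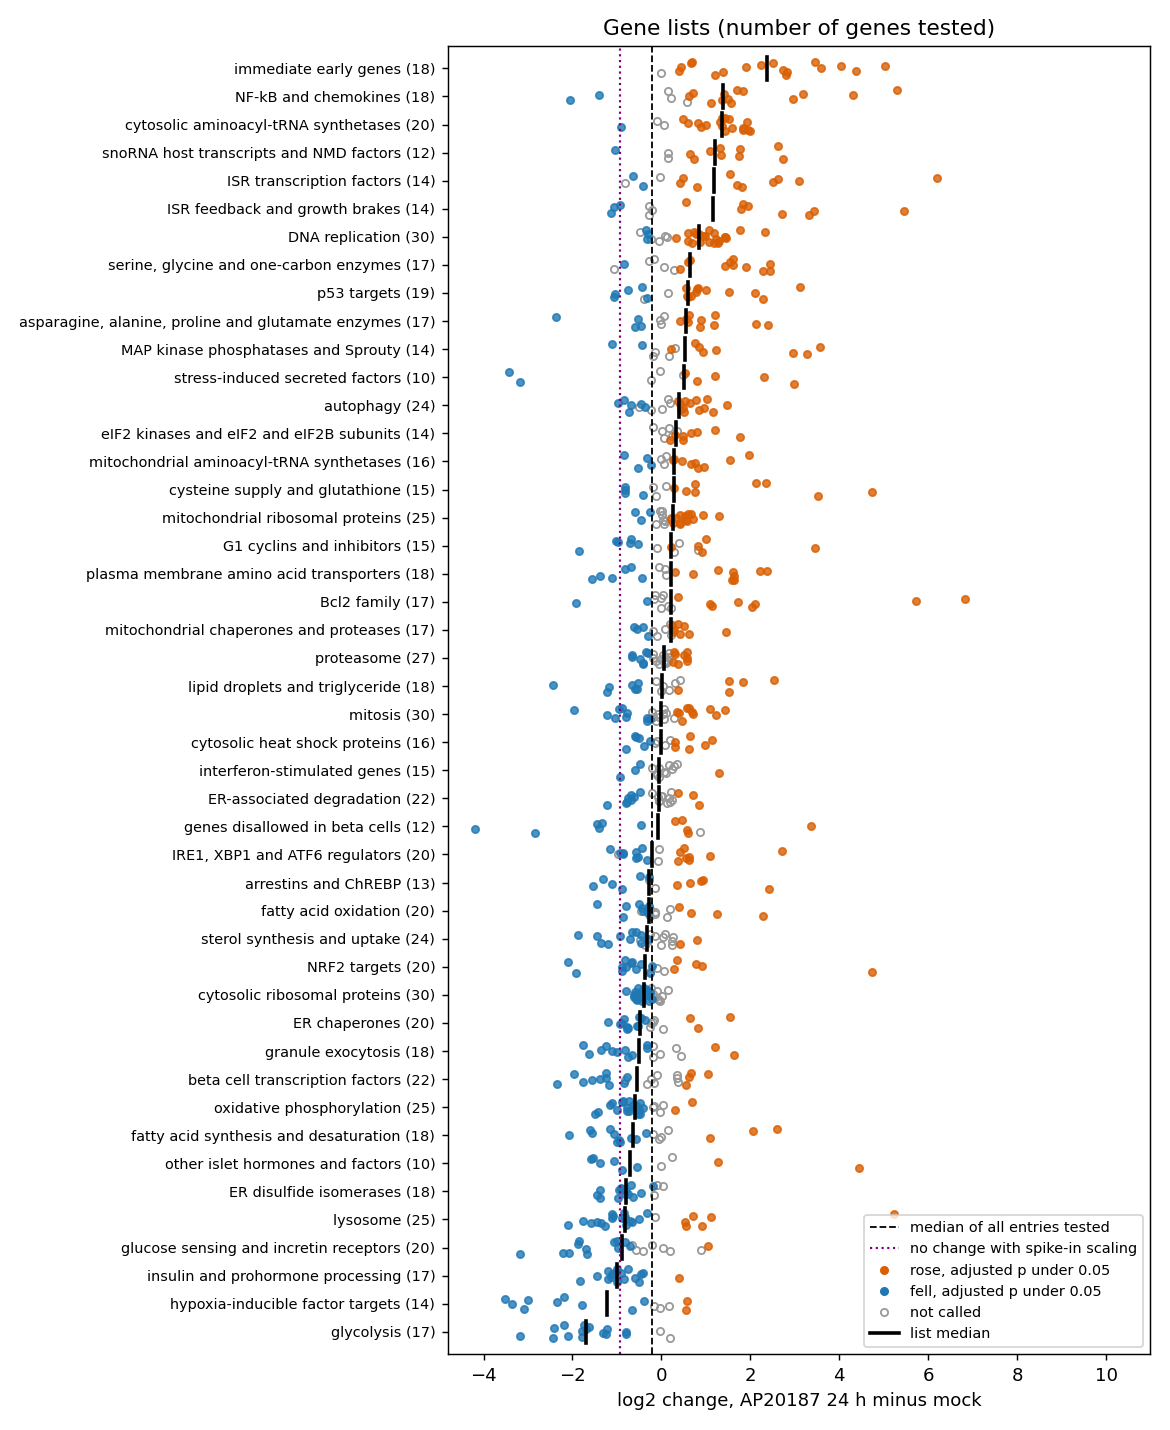
Change of each gene (log2, AP 24 h minus mock) by list, with the number of genes tested in brackets and the lists ordered by median. Orange and blue points rose and fell at an adjusted p under 0.05, open points were not called, and black bars are medians. The dashed line is the median of all entries (-0.20) and the dotted line marks no change with spike-in scaling (-0.93). The medians of glycolysis (-1.70), hypoxia-inducible factor targets (-1.22) and insulin and prohormone processing (-0.99) lie below the dotted line.

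The 15 largest rises with a symbol included many genes outside the lists above. Acox2, a peroxisomal oxidase of bile acid synthesis, was dim in mock cells and at least 31.5-fold higher in AP 24 h cells. Car6, a secreted carbonic anhydrase, was at 3.13 and 2.70 in AP 24 h cells, against -3.62 and -3.87 in mock cells (6.66 ± 0.18), with 1 mock array not well above background. Anxa10 rose by 6.19 ± 0.27. The fatty acid receptor Cd36 was at least 16.5-fold higher, the liver anion carrier Slco1b2 at least 17.8-fold, the trefoil peptide Tff1 at least 13.4-fold, the lectin Cd209c at least 19.6-fold and the olfactory receptor entry Olfr1383 at least 14.6-fold. Atf3, Hrk, Casp4 and Soat2, described above, were among the 15. Sectm1a headed the order at 7.52 ± 2.44 (adjusted p = 0.024), but its AP 24 h arrays stood at 8.13 and -1.59, against -3.89 and -4.63 in mock cells, so that 1 array decides its size. Vmn2r43, a vomeronasal receptor entry, is described with the time course. The specificity of the receptor probes was not tested.

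The 15 largest falls with a symbol again held hypoxia-responsive genes: Slc16a3, Bnip3, Adm, Ankrd37 and Ak4, a mitochondrial adenylate kinase that fell by 3.36. Mgarp and Fam162a, mitochondrial proteins induced by hypoxia in other cells, fell by 3.51 and 3.23. The hyaluronan receptor Lyve1 fell by 3.43. Tyrp1, a melanosome enzyme, was not well above background in AP 24 h cells and was at least 13.6-fold lower there, with -0.82 and -1.25 in mock cells. The dopamine receptor Drd2 was at least 8.12-fold lower, the antisense transcript Zfhx2os at least 14.9-fold, Gm6583 at least 6.71-fold and Sval2 at least 4.09-fold. Olfr1295 fell by 3.59. All 15 stayed called and lower with spike-in scaling.

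**Figure D4:**
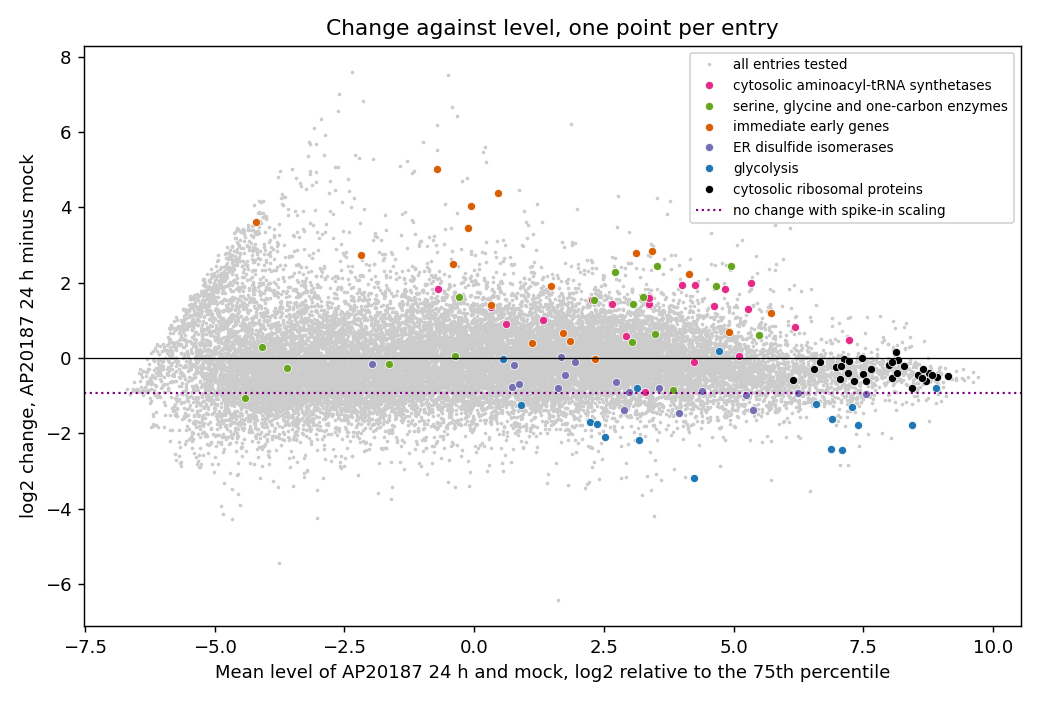
Change (log2, AP 24 h minus mock) against the mean level of both groups (log2 relative to the 75th percentile) for the 23388 entries tested, with 6 gene lists in colour. The dotted line marks no change with spike-in scaling (-0.93). Synthetase and one-carbon genes lie mostly above 0, glycolytic genes mostly below the dotted line, and ribosomal protein genes mostly between the lines.

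The 24 h values were set against those at 12 h, on the same slide but in another column, to show what was still moving. Time and column cannot be told apart in that comparison. Between 12 and 24 h, 27.5% of entries were called, and 15% of entries were higher at 24 h and 12.5% lower. The 6439 calls fell to 1720 with spike-in scaling (1250 higher and 470 lower at 24 h) and to 2346 with only the 4 arrays compared. They fell to 3586 without 12 h replicate 2, 3715 without 12 h replicate 1 and 4199 without 24 h replicate 2. The feedback genes Ppp1r15a and Trib3 were higher at 24 h by 1.28 ± 0.08 and 0.61 ± 0.12, and Ddit3 was higher by 0.72 ± 0.08 (adjusted p = 0.00019, 0.0081 and 0.001). Chac1 was already lower at 24 h than at 12 h, by 0.38 in size (-0.38 ± 0.11, adjusted p = 0.042). Atf4 did not differ between 12 and 24 h beyond the threshold (0.17 ± 0.12, adjusted p = 0.30). Hspa5 had levels of 7.78 and 7.70 in mock cells. With AP20187 these were 6.94 and 6.81 (6 h), 7.02 and 7.17 (12 h), 7.79 and 7.78 (24 h), and 7.70 and 7.77 (48 h). It was thus higher at 24 h than at 12 h by 0.69 ± 0.10 (adjusted p = 0.0029), and at 24 h it lay at the mock level. Of 20 ER chaperones 12 were higher at 24 h than at 12 h and 0 lower, and of 25 lysosomal genes 16 were higher and 0 lower. Of 18 immediate early genes, 3 were higher at 24 h and 9 lower.

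The largest rises between 12 and 24 h, among named entries also called against mock, were Vmn2r43, Gpnmb, Mep1a, Prr32 and Cd96. Gpnmb had levels of -4.17 and -3.65 in mock cells. With AP20187 these were -5.06 and -4.39 (6 h), -2.81 and -2.69 (12 h), 1.17 and 1.46 (24 h), and 2.96 and 2.89 (48 h). Vmn2r43 stood at -3.59 and -3.35 in mock cells, and in treated cells at -4.14 and -4.46 (6 h), -3.74 and -3.56 (12 h), 2.15 and 1.95 (24 h), and -5.05 and -4.33 (48 h). It was high on both 24 h arrays and on no other array of the time course. The largest falls were Smad6, Gm10536, Ptx4, Olfr39 and Neurog3. Each of these 5 was not well above background on either 24 h array, so the size of the fall has only a bound, from at least 1.73-fold for Neurog3 to at least 5.03-fold for Gm10536.

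The 48 h arrays lay on another slide, so that slide and time cannot be told apart. Between 24 and 48 h, 48.8% of entries were called, and 25.6% of entries were higher at 48 h and 23.1% lower. The 11402 calls fell to 6694 with spike-in scaling, and 22.7% of these were higher at 48 h. Atf4 was lower at 48 h by 0.55 (adjusted p = 0.0056) and Chac1 by 0.88 (adjusted p = 0.00065), whereas Trib3 and Ddit3 were not called (-0.16, adjusted p = 0.29, and 0.07, adjusted p = 0.48). Among entries also called at 24 h against mock, the largest rises at 48 h were Atp13a4, Gsto1, Tmem140, M1ap and Klhl40, and the largest falls Vmn2r43, Serpina3f, Lrtm2, Serpina4-ps1 and Fst. Gsto1, a glutathione transferase, was at 2.66 and 2.82 at 48 h, against 0.05 and 0.07 at 24 h. Fst, follistatin, was at -4.60 and -4.45 at 48 h, against -1.86 and -1.72 at 24 h.

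**Figure D5:**
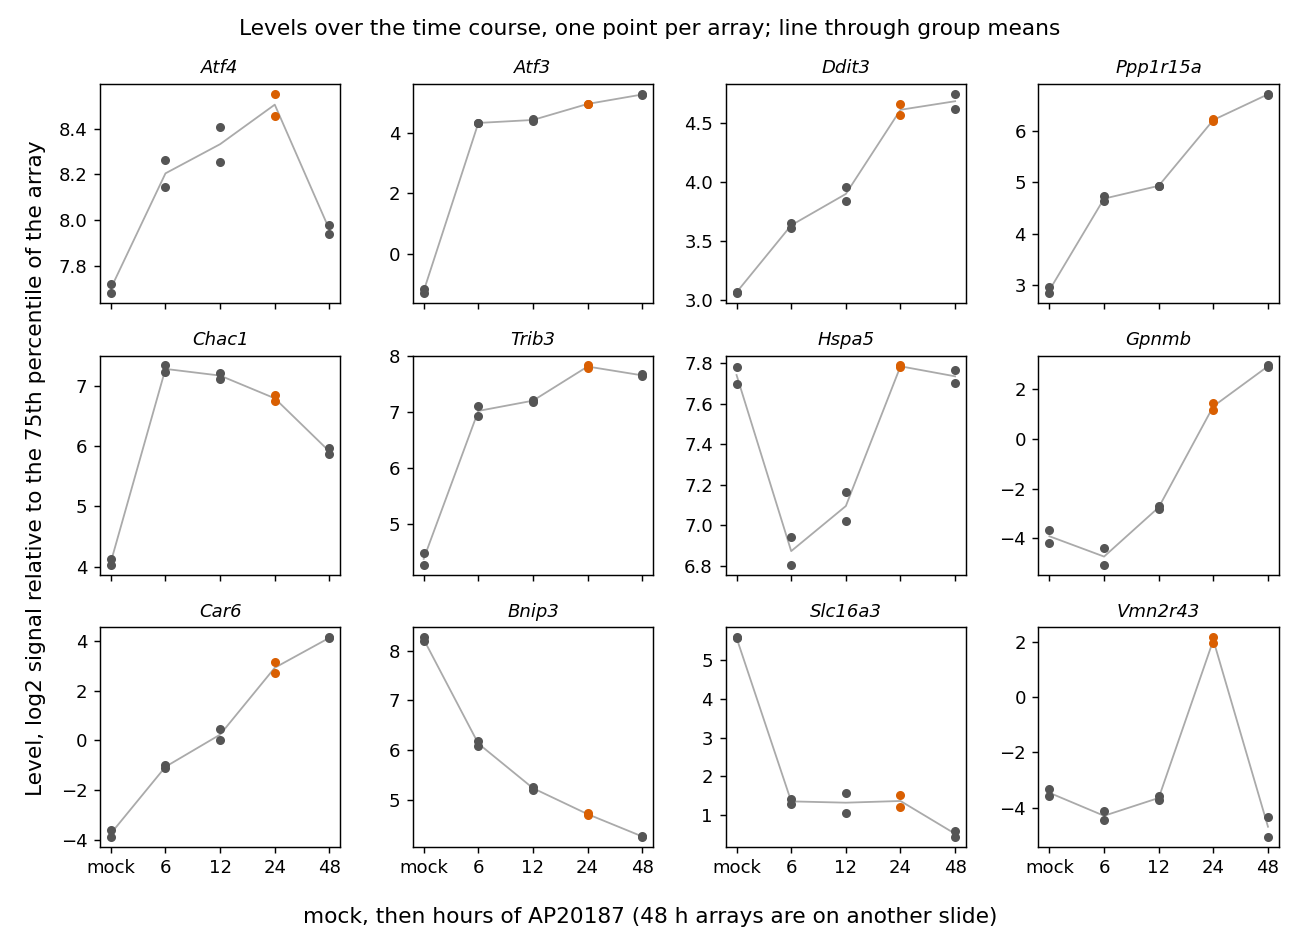
Levels of 12 genes (log2 signal relative to the 75th percentile of the array) in mock cells and after 6, 12, 24 and 48 h of AP20187. Points are arrays, orange marks 24 h, and lines join group means; each panel has its own axis. Hspa5 is near 7.8 at 24 h as in mock cells, Chac1 is highest at 6 h, and Vmn2r43 is high at 24 h alone.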

How the data were processed

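Per the labels' protocols, Cy3-labelled copies of total RNA were hybridised to 1-colour Agilent arrays. Per the submitters' processing notes and the file headers, the authors extracted the deposited spot intensity values with Agilent Feature Extraction 10.7.1.1, which subtracts background and detrends within each array. The deposited series matrix holds log2 values by the authors, which matched the scanner values to a median of 0.0015 in differences between arrays; no source used here states its per-probe centring.

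Here, control and outlier spots were left out, processed signals were averaged per probe, put on the log2 scale and set relative to the 75th percentile of the same array. Probes were named through RefSeq (GRCm38.p6), 26582 of 55681, and the brightest probe stood for a gene. Of 37208 entries, 23388 that were well above background on both arrays of at least 1 of the 6 groups were tested with limma 3.58.1 (R 4.3.3), with 1 term per group over the 12 arrays of the PERK experiment and Benjamini-Hochberg adjustment over all entries. The groups were Fv2E-PERK cells given mock treatment or AP20187 for 6, 12, 24 or 48 h, and wild-type mock cells. A gene dim on both arrays of 1 group has a bound in place of a fold. For 11 of the listed genes a second probe was called the other way, and only the brightest is used. The fit was tested on simulated data, where it called 9 of 50 log2 changes of 0.5 and 36 of 50 changes of 1. It also called 38 of 50 changes of -1, 47 of 50 changes of 2 and 5 unchanged entries. Far fewer entries were changed there than were called in the data, so these shares need not hold for the data. A gene not called may still have changed by a small amount.

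The members and gene lists were chosen with earlier results of these data known. Named are the 15 largest rises and falls whose arrays do not overlap, per list up to 6 called and up to 4 uncalled members, 5 each way between 12, 24 and 48 h, and a set of stress response and beta cell genes; some genes that this rule selects are not reported here. Replicate numbers did not pair the arrays: deviations of same-numbered arrays correlated by -0.01 to 0.13. The number of arrays, 2 per group, limits the precision. Alternatives tried were spike-in, quantile and matrix values, normexp correction, no filter, mean probes, fewer arrays, a replicate block and leaving out each array.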

Additional observations from a re-analysis of the deposited data

Results flagged for a closer look

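In these 10 named genes the effect at 24 h differed from that at 12 h by the direct contrast of the times in limma, and they are the 5 largest differences each way among genes also called against mock. The 24 h values were higher by 5.70 for Vmn2r43, 4.06 for Gpnmb, 3.99 for Mep1a, 3.81 for Prr32 and 3.79 for Cd96. The fitted differences below 0 were -3.02 for Smad6, -2.64 for Gm10536, -2.63 for Ptx4, -2.58 for Olfr39 and -2.55 for Neurog3. Mep1a had 1 high array at 6 h, with levels of -6.75 and -2.27 there, and its standard error was 1.12. Prr32 and Cd96 were not well above background at 12 h, and are at least 6.79-fold and 4.55-fold higher at 24 h. No group held enough arrays for a test of single outlying arrays.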

How the results depend on the processing

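The number of entries called between AP 24 h and mock cells, 15759, stayed within 1.5 times under every alternative, from 13418 (only the 4 arrays compared) to 21293 (no filter on dim probes), and from 13777 to 14842 when 1 array was left out. Its split did not: 40.1% of calls were higher with the 75th percentile, 93.5% with spike-in scaling, 47.5% with quantile normalization, 34.5% with normexp and 28.5% without the filter. With the replicate block 15790 entries were called. Of 43 genes tested under each setting, the changes of Ins1, Ins2 and Mafa reversed with spike-in scaling, to 0.42, 0.52 and 0.17, none of them called. Spike-in scaling raised every change by 0.93, and which scaling holds was not tested. The change of Ins2 also reversed with quantile normalization, to 0.14 and not called, and the cause was not tested. Sectm1a lost its call without either mock array, with only the 4 arrays compared and with slide 1 alone, and Slc2a2 and Ins2 lost theirs without some single arrays. Eif2ak3 gained a call without AP 24 h replicate 2, at 0.43. The count between AP 24 h and AP 12 h, 6439, fell to 1720 with spike-in scaling (72.7% higher, against 54.5%) and to 2346 with only the 4 arrays compared, and ranged from 3586 to 5726 when 1 array was left out (3586 without 12 h replicate 2, 3715 without 12 h replicate 1 and 4199 without 24 h replicate 2). The count between AP 48 h and AP 24 h, 11402, fell to 6694 with spike-in scaling (22.7% higher, against 52.6%) and ranged from 7654 to 10095 when 1 array was left out. The replicate block changed no other call by over 1.5 times (6093 and 11273). The cause of the moved counts was not tested. Genes near background are limited to bounds, and slide and time cannot be told apart at 48 h, for which no fit with slide as a term could be had.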

Other observations

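Among 20 targets of NRF2, 5 rose and 12 fell, and with spike-in scaling 10 were higher and 2 lower. Gstm1, a glutathione transferase, was at 1.80 and 1.72 in AP 24 h cells, against 3.84 and 3.87 in mock cells, a change of -2.09 ± 0.09 (SE; limma adjusted p = 9.3e-07). Nqo1, a quinone reductase, fell by 1.92. Both stayed lower with spike-in scaling, at -1.16 and -0.99. Of 24 genes of sterol synthesis and uptake, 11 fell and 2 rose, a share of falls near that of all entries (40.4%). With spike-in scaling 1 of them was lower and 11 higher.

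Of 18 granule exocytosis genes, 11 fell and 2 rose, and with spike-in scaling 2 were lower and 8 higher. The Rab effectors Rph3al and Sytl4 fell by 1.77 and 1.63 and were those that stayed lower, at -0.84 and -0.70. The active zone gene Rims2 rose by 1.21 ± 0.09. Of 10 other islet hormones and factors, 2 rose and 6 fell, and with spike-in scaling 4 were higher and 2 lower. Nts, neurotensin, was not well above background in mock cells and was at least 14.7-fold higher in AP 24 h cells (limma adjusted p = 2e-06). Npy, neuropeptide Y, was at 5.95 and 6.12 in AP 24 h cells, against 7.57 and 7.67 in mock cells (-1.59 ± 0.09), and Gast, gastrin, fell by 1.53. Npy and Gast were the 2 that stayed lower with spike-in scaling, at -0.66 and -0.60. Of 25 mitochondrial ribosomal protein genes, 14 rose and 3 fell, led by Mrpl9 at 1.29 ± 0.09.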
